A study of Mus musculus with 4 samples.

Results

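Glycolysis breaks glucose down to pyruvate in a chain of enzyme steps in the cytosol, and lactate dehydrogenase turns pyruvate into lactate when it is not sent to the mitochondria. The hypoxia-inducible factors (HIF) are transcription factors made of an alpha subunit, such as Hif1a or Epas1 (HIF-2 alpha), and the beta subunit Arnt. With oxygen present, prolyl hydroxylases of the Egln family mark the alpha subunits for destruction through Vhl, and when oxygen is low the factors raise many glycolytic genes as well as genes of vessel growth, matrix hydroxylation and mitochondrial removal. This account follows 35 such genes, chosen by name for their roles: 22 of glycolysis (17 enzymes from hexokinase to lactate dehydrogenase and 5 transporters and regulators) and 13 of the hypoxia response. They were read by 59 of the 41174 probes on the array, and 34 of them were among the 22859 genes tested.

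RNA came from OP9 cells, a mouse bone marrow stromal line that lacks functional M-CSF and is used to support blood progenitors in culture. Control cells (2 samples) carried the retroviral vector LZRS-IRES-GFP alone, and Wnt3A cells (2 samples) carried it with the Wnt3A gene, so both groups held the vector and its GFP. The labels name no low-oxygen treatment, and they do not say whether cells were sorted or grown from 1 clone, or whether samples of a group were separate cultures, so p-values measure only the spread between these samples. Each sample was read on 1 one-colour Agilent array after its RNA had been amplified by PCR. Precision is limited by having 2 arrays in a group.

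The deposited files held the arrays in a pair of forms that did not tell the same story, so the source of each value matters. Unless stated otherwise, values come from the deposited table of all samples and are log2 intensities relative to the 75th percentile of their array. In the scanner files, 16 of the 22 glycolysis genes were higher in Wnt3A and 6 lower, with a median difference of 0.48, whereas 17 were lower in the table. Of all 19674 genes tested in both sources, 54.8% were lower in the scanner files, with a median of -0.12. Only 5 of the 22 glycolysis genes, 6 of the 9 hypoxia genes measured there, and 9847 of all 19674 genes had the same sign in both sources. Hif1a, Adm and P4ha2 did not pass the filter in the scanner files. The scanner file of Control replicate 2 was the nearest in rank for each of the 4 columns of the table, with correlations of 0.826 to 0.845. The scanner file of Control replicate 1 was faint, with 41.8% of spots well above background against 71.6% to 85.7% in the other files. Which source holds the arrays of these samples correctly was not tested. Directions below are those of the table unless stated otherwise, and need not hold in the scanner files. Members with the same sign in both sources are named further below, and for other genes the scanner direction is mostly not given. The scanner files gave 0 calls among the members (limma, adjusted p under 0.05), with 0 members at an unadjusted p under 0.05.

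The inserted gene gave no firm check of the labels. The single Wnt3a probe had table intensities of 0.0151 and 0.0134 in Control and 0.0112 and 0.123 in Wnt3A, above the detection floor only in Wnt3A replicate 2, and was not tested. Its scanner log2 values were higher in Control (-1.77 and -3.59) than in Wnt3A (-5.47 and -8.06), with 2 arrays well above background. Whether the vector's insert reaches this probe, at transcript position 2599, is not said in the labels. Of the 13 stromal markers, 13 were tested, and their summed intensity was 1434 and 2097 in Control and 1849 and 2063 in Wnt3A. That sum hides differences of both signs, since 8 of the 13 had a size of 1 or more. Nt5e, with no Control array above the floor, was at least 53.1-fold higher against the floor. It entered the test only through its Wnt3A arrays, so its call (adjusted p = 0.0403 in limma) is no evidence of a change. Col3a1 (4.27) and Col1a1 (1.81) were higher and Pdgfra (-2.25), Ly6a (-1.38) and S100a4 (-1.22) lower without passing. Of the 10 adipocyte markers 9 were tested, and all 9 were lower in Wnt3A. In 6 of them the groups did not overlap, where 23.7% of all genes were lower without overlap, and in 3 they overlapped. The sum of the 9 was 899 and 1116 in Control against 123 and 88.7 in Wnt3A. Lep was below the floor. Lpl, a lipase of fat storage, was the 1 called, where 0.241% of all genes were called lower. It fell by 3.42 (adjusted p = 0.0441 in limma). Adipoq read 3.49 and 3.74 in Control and -1.39 and -0.40 in Wnt3A (adjusted p = 0.0546 in limma). Blood cell markers (12 of 12 tested) summed to 11.3 to 14.4 in Control and 10.9 to 14.5 in Wnt3A, and proliferation markers (7 of 7) to 119 to 186 and 118 to 168. Epithelial markers (4 of 4) summed to 7.04 to 9.71 and 7.24 to 8.02, and endothelial ones (2 of 6) to 1.08 to 1.61 and 0.799 to 1.14. What part the adipocyte genes or any other cell type have in the values below was not tested. In such bulk samples, fewer cells of a type and less RNA per cell cannot be told apart.

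HIF dimers bind DNA at the core letters ACGTG or GCGTG, and 4 promoters are printed as examples of where these letters stand. None of these 4 members passed the test. Pfkfb4 and Adm were members with no Wnt3A array, or only 1, above the detection floor, Ldha held the most copies of ACGTG, and Bnip3 was among the brightest hypoxia genes and held both forms. Each line gives the 250 bases before a transcript start in RefSeq's annotation of GRCm38.p6, 5′ to 3′ on the gene's strand, with the letters in capitals where ACGTG or GCGTG lies on either strand (CACGT and CACGC on the printed one). The windows are chr9:108991652-108991901 (plus strand), chr7:46845554-46845803 (plus), chr7:110627407-110627656 (plus) and chr7:138909507-138909756 (minus).
Pfkfb4: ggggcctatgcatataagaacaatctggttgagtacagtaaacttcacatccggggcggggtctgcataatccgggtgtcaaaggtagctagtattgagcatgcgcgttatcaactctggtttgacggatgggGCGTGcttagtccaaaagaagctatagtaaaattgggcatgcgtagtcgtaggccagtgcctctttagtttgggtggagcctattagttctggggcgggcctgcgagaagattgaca
Ldha: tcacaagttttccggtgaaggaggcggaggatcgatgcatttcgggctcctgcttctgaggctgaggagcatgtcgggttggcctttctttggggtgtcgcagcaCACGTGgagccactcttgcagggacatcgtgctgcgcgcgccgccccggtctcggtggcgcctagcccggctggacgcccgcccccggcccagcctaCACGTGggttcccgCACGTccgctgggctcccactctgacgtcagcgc
Adm: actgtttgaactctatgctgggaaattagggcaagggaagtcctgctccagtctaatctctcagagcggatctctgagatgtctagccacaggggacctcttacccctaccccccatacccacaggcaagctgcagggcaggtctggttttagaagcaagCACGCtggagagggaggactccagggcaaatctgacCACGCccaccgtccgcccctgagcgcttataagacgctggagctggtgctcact
Bnip3: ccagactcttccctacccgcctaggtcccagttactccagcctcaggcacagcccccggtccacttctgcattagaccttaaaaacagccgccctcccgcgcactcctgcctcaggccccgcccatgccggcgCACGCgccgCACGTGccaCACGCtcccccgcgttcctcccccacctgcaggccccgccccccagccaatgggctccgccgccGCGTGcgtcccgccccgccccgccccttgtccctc
CACGTG reads the same on both strands and counts as 2 copies of ACGTG, so the Ldha window held 5 copies of ACGTG and the Bnip3 window held 2, with 3 of GCGTG. The Adm window held 2 copies of GCGTG and the Pfkfb4 window 1, and neither held ACGTG. Starts were at hand for 22 of 22 glycolysis genes (35 starts) and for 11 of 13 hypoxia genes (12 starts). None was at hand for Epas1, the 1 member called below, or for Ndrg1. ACGTG on either strand lay in 37.1% of the glycolysis starts and 83.3% of the hypoxia starts, beside 16.6% of all 32851 starts. ACGTG or GCGTG lay in 77.1%, 91.7% and 38.6% of them. These are matches of letters in a window and not measured binding sites. The members were chosen by name for known roles, HIF targets among them, so these shares test nothing.

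Glycolysis genes as a group lay below their Control values in the Wnt3A arrays of the table, by little and without any passing the test. Of 22 genes, 17 were lower and 5 higher, and the median difference (Wnt3A minus Control) was -0.43, beside -0.01 for all 22859 genes, of which 51.0% were lower. At an adjusted p under 0.05 in limma 0 of the 22 were called lower or higher, where 0.241% of all genes were called lower and 0.402% higher. At an unadjusted p under 0.05, 2 were lower (Pfkl and Pfkfb4) and 0 higher, where 6.34% of all genes were lower and 6.31% higher. Of these, Pfkfb4 entered the test only through its Control arrays, since no Wnt3A array was above the detection floor, so its p is no evidence of a change. The groups did not overlap, with Wnt3A lower, in 14 of the 22 genes, where 23.7% of all genes did so. Pfkfb4 is among the 14, and for the reason just given its place there is no evidence of a change. The groups did not overlap, with Wnt3A higher, in 2 genes (Aldoc and Pfkfb3), where 21.5% of all genes did so. With 2 arrays against 2, an exact permutation test of a single gene cannot give a two-sided p below 0.333. The median kept its sign in the table without any 1 array (-0.55 to -0.38).

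**Figure D1:**
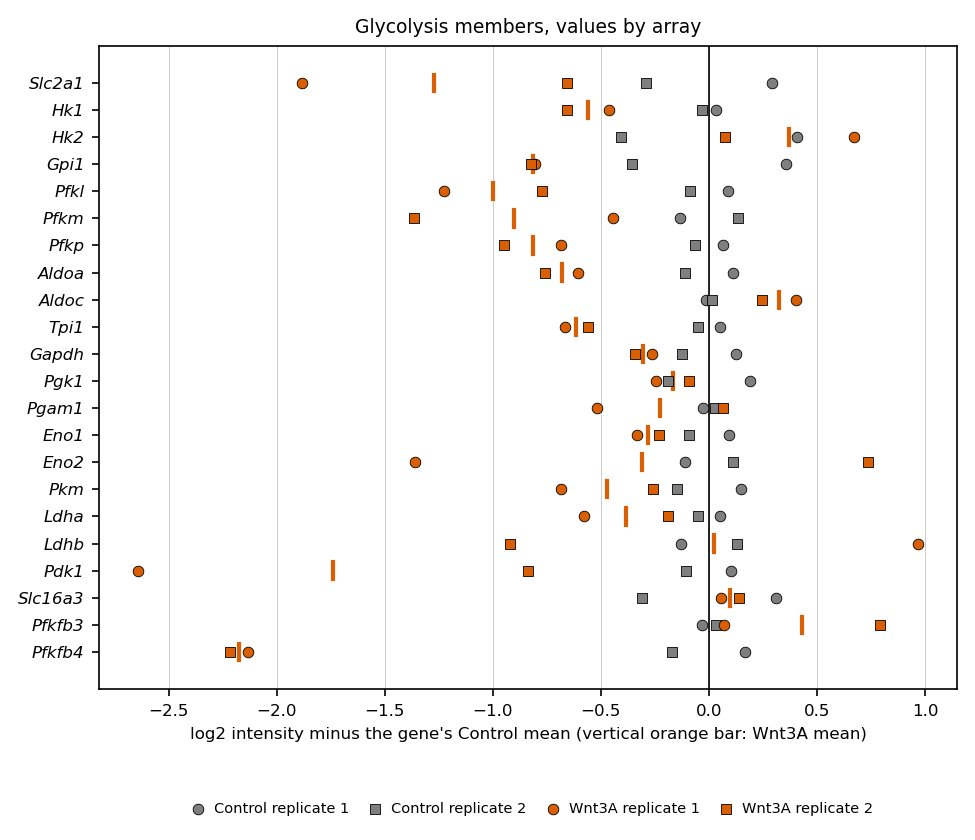
The 22 glycolysis genes in the deposited table, each array drawn as its log2 intensity minus the gene's Control mean; grey marks are Control, orange marks Wnt3A, circles replicate 1, squares replicate 2, and the orange bar is the Wnt3A mean. In 14 genes both orange marks lie left of both grey marks, and in Aldoc and Pfkfb3 both lie right of them.

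Glucose enters the cell through Slc2a1 (the transporter GLUT1). Its log2 intensity was -0.38 and -0.96 in Control and -2.56 and -1.33 in Wnt3A. Both Wnt3A arrays lay below both Control arrays, but the Wnt3A arrays were further apart than the Control ones. The difference was -1.27 ± 0.55 (SE, n = 2 per group, adjusted p = 0.436 in limma), and it was -0.66 without Wnt3A replicate 1 and -1.88 without Wnt3A replicate 2.

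Hexokinases trap glucose by phosphorylation. Hk1 was read by 6 probes, of which 5 were lower, by -1.12 to -0.56, and 1 was higher, by 0.61. The probe that was higher starts at position 115 of the transcript. The brightest Hk1 probe read 3.79 and 3.73 in Control and 3.30 and 3.11 in Wnt3A. Its difference was -0.56 ± 0.30 (adjusted p = 0.530). Hk2, the inducible hexokinase, overlapped between groups, with a difference of 0.37. Gpi1, which turns glucose 6-phosphate into fructose 6-phosphate, differed by -0.82 ± 0.38 without overlap, though its second probe differed by 0.09.

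Phosphofructokinase makes the committed step, and the 3 genes of its subunits were all lower without overlap. Pfkl, the liver type, read 4.41 and 4.24 in Control and 3.10 and 3.55 in Wnt3A. Its difference of -0.998 ± 0.34 had an unadjusted p of 0.038 and an adjusted p of 0.337. Pfkm, the muscle type, differed by -0.90 ± 0.44, and Pfkp, the platelet type, by -0.82 ± 0.31, with all 3 Pfkp probes lower. None of the 3 genes passed the test. The Wnt3A minus Control difference was above 0 for all 3 in the scanner files (2.13, 1.36 and 0.10).

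The bifunctional enzymes Pfkfb3 and Pfkfb4 set the level of fructose 2,6-bisphosphate, which activates phosphofructokinase, and here they stood on opposite sides. Pfkfb4 (probe at chr9:108889519-108889578 in mm8) read -4.33 and -4.67 in Control and -6.63 and -6.72 in Wnt3A. The groups were well apart and each pair of arrays close, but the gene was dim, and no Wnt3A array was above the detection floor. Against the floor, Pfkfb4 was at least 3.44-fold lower in Wnt3A, a bound that holds only if the true limit of detection is no higher. The measured means were -4.497 and -6.67, and the fit's adjusted p of 0.101 did not pass and rests on Wnt3A values below the floor. Pfkfb4 was also lower in the scanner files (-2.12). Pfkfb3 was higher by all 3 of its probes, by 0.31, 0.43 and 1.29, and the last had an unadjusted p of 0.036 and an adjusted p of 0.329. By its brightest probe Pfkfb3 differed by 0.43 ± 0.38, and by -0.49 in the scanner files.

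Aldolase splits the sugar into a pair of triose phosphates. Aldoa read 6.42 and 6.20 in Control and 5.70 and 5.55 in Wnt3A. Both Wnt3A arrays were below both Control arrays, by a difference of -0.68 ± 0.31 (adjusted p = 0.454), and its second probe gave -0.72. Aldoc, the brain form, was higher by 0.32 ± 0.30 without overlap, while its second probe differed by -0.12. Tpi1, which interconverts them, differed by -0.61 ± 0.30, also without overlap.

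The later steps of the pathway yield ATP. Gapdh, which oxidises glyceraldehyde 3-phosphate and is often used as a loading control, read 6.12 and 5.88 in Control and 5.74 and 5.66 in Wnt3A. Its difference was -0.30 ± 0.31 (adjusted p = 0.748). Eno1, the common enolase, read 6.39 and 6.21 in Control and 5.97 and 6.07 in Wnt3A, a difference of -0.28 ± 0.30. For both genes the groups did not overlap, but the differences were no larger than their standard errors. Pkm, pyruvate kinase, differed by -0.47 ± 0.34 without overlap, and all 3 of its probes were lower, by -0.92 to -0.47. Pgk1 (-0.17), Pgam1 (-0.23) and Eno2, the neuronal enolase (-0.31), overlapped between groups. Aldoa, Eno1 and Gapdh had the brightest probes of the group, but brightness also depends on the probe, so no order of levels between genes is drawn. Many of these enzymes have processed pseudogenes, and whether the probes tell them apart was not tested.

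The fate of pyruvate is set by lactate dehydrogenase and by the pyruvate dehydrogenase kinases, which act in mitochondria and limit the conversion of pyruvate to acetyl-CoA. Ldha differed by -0.38 ± 0.33 without overlap, with its second probe at -0.43, and Ldhb by 0.02 ± 0.71 with overlap. Pdk1 read -0.31 and -0.52 in Control and -3.06 and -1.25 in Wnt3A. The Wnt3A arrays were both lower but lay far apart from each other. The difference was -1.74 ± 0.69 (unadjusted p = 0.060, adjusted p = 0.395), and it was -0.84 without Wnt3A replicate 1 and -2.64 without Wnt3A replicate 2. Pdk1 had a lower mean in the scanner files too (-1.45), though the groups overlapped there. With Pfkfb4 and Eno1 (-0.05) it makes 3 of the 17 lower genes whose mean was lower in both sources. Slc16a3, the lactate exporter MCT4, overlapped between groups with a difference of 0.10.

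**Figure D2:**
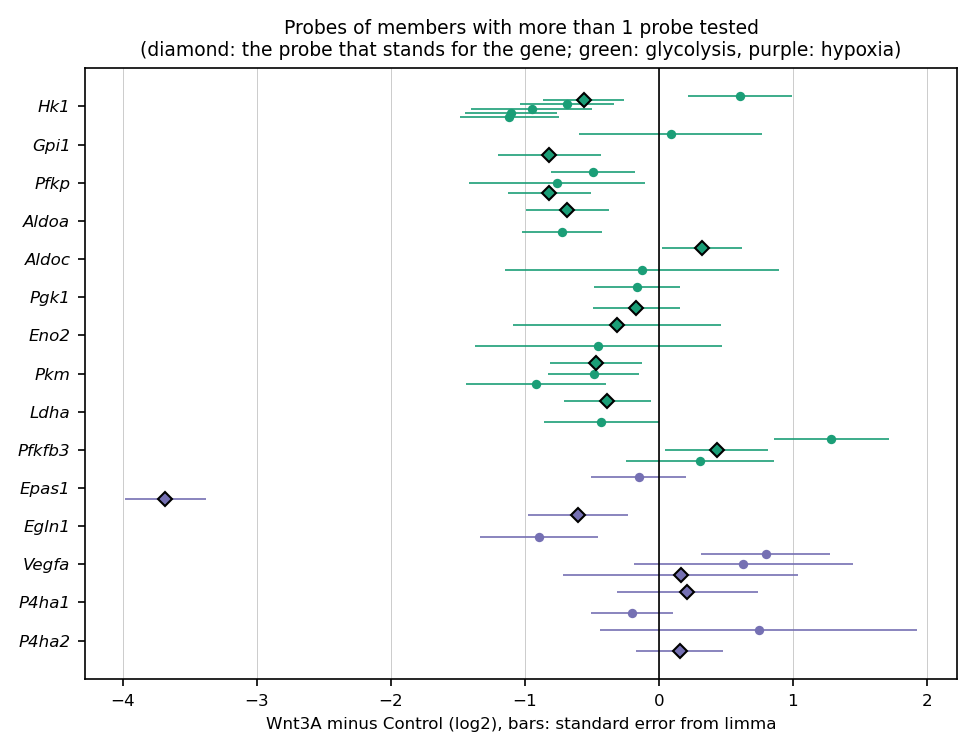
Difference of every tested probe (Wnt3A minus Control, log2; bars, standard error from limma) for the 15 members with more than 1 tested probe; diamonds mark the probe that stands for the gene, green glycolysis, purple hypoxia. All probes lie on the same side of 0 in 11 genes and on both sides in 4 (Hk1, Gpi1, Aldoc and P4ha1).

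Different probes of a gene mostly gave the same sign. Of the 39 glycolysis probes tested, 30 were lower, and of the 18 hypoxia probes 7 were lower. Probes of a gene are read on the same arrays, and some overlap in position, such as those of Pgk1. These counts are therefore descriptions and not separate measurements. The plot of differences by probe shows the agreement for Aldoa, Pkm and Ldha, and the distance between the Epas1 probes.

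The hypoxia genes went both ways and 1 of them passed. Of 13 genes 12 were tested, 4 lower and 8 higher, with a median difference of 0.16. Epas1 was the 1 gene called lower in limma and 0 were called higher. Over all genes 0.241% were called lower and 0.402% higher. At an unadjusted p under 0.05, Epas1 and Adm were lower and Hif1a higher, where 6.34% and 6.31% of all genes were, and Adm entered the test through its Control arrays alone. Groups did not overlap in 3 of the 12 with Wnt3A lower (Epas1, Adm and Egln1), where 23.7% of all genes did so. Because of how Adm entered the test, neither its p nor its place among these 3 is evidence of a change. Groups did not overlap in 1 with Wnt3A higher (Hif1a), where 21.5% of all genes did so, and in the other 8 they overlapped. The median changed sign with single arrays, to -0.41 without Control replicate 2 and -0.17 without Wnt3A replicate 1.

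**Figure D3:**
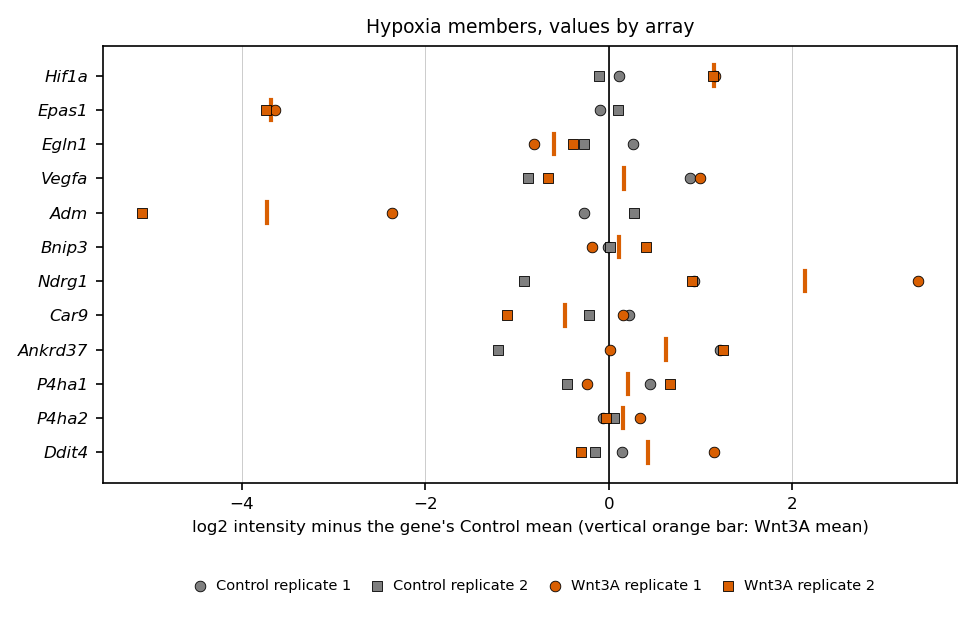
The 12 tested hypoxia genes in the deposited table, each array drawn as its log2 intensity minus the gene's Control mean; grey marks are Control, orange marks Wnt3A, circles replicate 1, squares replicate 2, and the orange bar is the Wnt3A mean. Epas1, Adm and Egln1 have both orange marks left of both grey ones and Hif1a has both to the right, while the other 8 genes overlap.

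Epas1, the HIF alpha subunit typical of endothelium and of several other specialised cells, had 2 probes that disagreed. The brighter (chr17:86739794-86739853 in mm8, position 3372 of the transcript) read 2.30 and 2.49 in Control and -1.24 and -1.34 in Wnt3A. Each pair of arrays was close together and the groups were far apart. By this probe Epas1 fell by 3.68 ± 0.30 on the log2 scale (12.8-fold, n = 2 per group, adjusted p = 0.0398 in limma). The dimmer probe (chr17:86707043-86707102, position 2546) read -2.73 and -3.00 in Control and -3.27 and -2.76 in Wnt3A, and its difference was -0.15 ± 0.36 (adjusted p = 0.907). With the mean of both probes the difference was -1.92 (adjusted p = 0.0857), and in the scanner files the brighter probe was higher by 0.60 (adjusted p = 0.9999). Without any 1 of the 4 arrays the difference stayed at -3.78 to -3.58 (adjusted p 0.159 to 0.198), in fits that called 0 of all probes. Of 12 alternative settings of the table, 4 kept the call (adjusted p 0.0184 to 0.198 over the 12). Why the probes differ was not tested.

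Hif1a, the alpha subunit found in most cells, stood on the other side. Its single probe (chr12:74865120-74865180) read -2.51 and -2.72 in Control and -1.46 and -1.47 in Wnt3A. The Wnt3A arrays were nearly equal and both above the Control arrays. The difference was 1.15 ± 0.30 (unadjusted p = 0.017, adjusted p = 0.246), lay between 1.04 and 1.25 in 12 alternative settings of the table, and passed in 0 of them. In the scanner files Hif1a was not tested, with 1 array well above background, and its difference there was -3.52. HIF alpha subunits are controlled mainly through protein stability, which arrays do not read.

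Egln1, the main prolyl hydroxylase (PHD2), read 0.02 and -0.52 in Control and -1.06 and -0.64 in Wnt3A. The nearest Control and Wnt3A arrays were only a little apart. Its difference was -0.60 ± 0.38 (adjusted p = 0.585 in limma), and its second probe differed by -0.89. In the scanner files the difference of means was -0.76, but the groups overlapped (-0.41 and -0.62 in Control, 0.11 and -2.65 in Wnt3A). The second probe differed there by only -0.002. Egln3 (PHD3), itself raised by HIF, was above the floor on 1 Wnt3A array only and was not tested, with values of -6.82 and -8.58 in Control and -4.90 and -7.53 in Wnt3A.

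Of the 9 HIF target genes, 2 were lower and 7 higher, with a median of 0.16, and 0 passed. Adm encodes adrenomedullin, a secreted peptide that widens vessels. It read -1.26 and -0.71 in Control and -3.35 and -6.08 in Wnt3A, the last just below the floor. Both Wnt3A arrays were lower, but they differed from each other by more than either Control array from the nearer Wnt3A array. With 1 Wnt3A array below the floor, the fitted difference of -3.73 (adjusted p = 0.248) is not an exact one. Without that array the difference was -2.36 (adjusted p = 0.305).

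Vegfa, the main growth factor for vessels, read 3.40 and 1.63 in Control and 3.50 and 1.85 in Wnt3A. The replicates of each group lay further apart than the groups, whose difference was 0.16 ± 0.88, and its other probes differed by 0.63 and 0.80. Bnip3, a mitochondrial protein that marks mitochondria for removal, read 2.46 and 2.47 in Control and 2.28 and 2.87 in Wnt3A, a difference of 0.11 ± 0.36. P4ha1, a subunit of the collagen prolyl hydroxylase, read 2.89 and 1.99 in Control and 2.20 and 3.10 in Wnt3A, a difference of 0.21 ± 0.53. These 3 genes had the brightest probes of the hypoxia group, and in each the groups overlapped.

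Ndrg1, a stress-response gene, had the most positive difference (2.14 ± 1.09, adjusted p = 0.507). It read -2.56 and -4.41 in Control and -0.12 and -2.58 in Wnt3A, so the higher Control array matched the lower Wnt3A array. The other targets differed little for their spread: Ddit4, an inhibitor of mTORC1, by 0.42 ± 0.59, P4ha2 by 0.16 ± 0.32, Ankrd37 by 0.63 ± 0.97 and Car9, a carbonic anhydrase of the cell surface, by -0.48 ± 0.54. All 4 overlapped between groups.

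**Figure D4:**
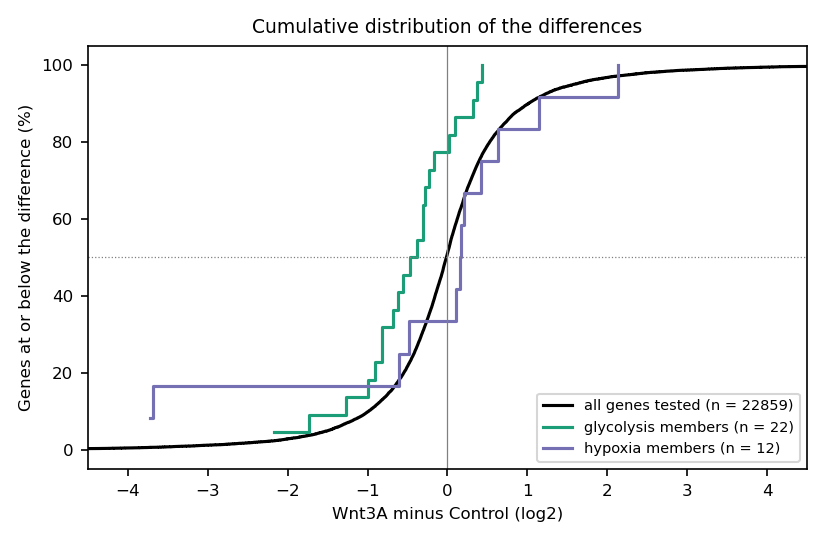
Share of genes (%) at or below each Wnt3A minus Control difference (log2) in the deposited table, for all 22859 genes tested (black), the 22 glycolysis genes (green) and the 12 hypoxia genes (purple). The green line crosses 50% left of 0, at its median of -0.43, and the purple line crosses it at 0.16, with Epas1 and Adm at the far left.

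The cumulative plot sets both groups beside all genes. The glycolysis differences lay between -1.74 and 0.43 apart from that of Pfkfb4, and 3 of 22 (Slc2a1, Pdk1 and Pfkfb4) had a size of 1 or more. The hypoxia differences ran from -3.68 to 2.14 apart from that of Adm. The 34 genes were chosen by name, and neither position was tested.

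Genes around the pathway gave further values. Of 23 tested in a list of other glucose and glycolysis genes, 14 were lower and 9 higher, with a median of -0.10, and 0 were called. Those with the smallest p were Galm, which prepares galactose for breakdown (-1.48 by its brightest probe, while its other, with no Control array above the floor, was at least 8.93-fold higher), the muscle enolase Eno3 (1.32) and the monocarboxylate carrier Slc16a7 (1.15 by 1 probe and 0.06 by another). Among 13 HIF factors and regulators, 4 were lower and 9 higher, the median was 0.24 and 0 were called. Vhl, the recognition subunit of the ligase that destroys HIF alpha, differed by 1.09 ± 0.43, its partner Elob by -0.61 ± 0.31 and the coactivator Ep300 by 0.74 ± 0.39, with adjusted p from 0.400 to 0.516.

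Of 32 other known hypoxia targets 16 were lower and 16 higher, the median was -0.08, and 0 genes were called by their brightest probe. The very low density lipoprotein receptor Vldlr read -4.55 and -5.47 in Control and -1.13 and -1.04 in Wnt3A, a difference of 3.92 ± 0.43 (adjusted p = 0.0632). Placental growth factor, Pgf, read 1.64 and 2.49 in Control and -1.37 and -1.37 in Wnt3A, a difference of -3.44 ± 0.41 (adjusted p = 0.0726). Ppp1r3c, which targets a phosphatase to glycogen, differed by 3.13 ± 0.52 (adjusted p = 0.124). These 3 sets of values did not overlap between groups, and they stood on both sides of 0.

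In the pyruvate dehydrogenase and citrate cycle list, 16 of 28 genes were lower and 12 higher, with a median of -0.12. Pdk4, a pyruvate dehydrogenase kinase induced in fasting, was the 1 gene called, where 0.402% of all genes were called higher. It rose by 4.28 ± 0.30 (adjusted p = 0.0319 in limma). It read -4.74 and -4.82 in Control and -0.59 and -0.40 in Wnt3A, the opposite side from Pdk1. The difference was 4.19 to 4.38 over 12 alternative settings of the table (adjusted p 0.0221 to 0.192), of which 6 kept the call. The other settings included the 4 that left out an array, which called 0 of all probes. In the scanner files Pdk4 was not tested, with 2 arrays well above background, and its difference there was -1.44. Suclg2 and Idh3a of the citrate cycle differed by -0.93 ± 0.36 and -0.84 ± 0.33 and did not pass.

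The pentose phosphate pathway branches off from glucose 6-phosphate and makes NADPH and ribose. Of its 8 genes 7 were lower and 1 higher, the median was -0.77 and 0 were called. G6pdx, the first enzyme, read 4.16 and 4.42 in Control and 2.38 and 2.36 in Wnt3A, without overlap and with a difference of -1.92 ± 0.31 (adjusted p = 0.116). Pgd, the next NADPH-yielding enzyme, differed by -1.17 ± 0.37 and transketolase, Tkt, by -1.03 ± 0.32, although the other Tkt probes gave -0.50 and, with 1 Control array below the floor, 1.53. In the scanner files G6pdx was also lower (-0.65), while Pgd (0.34) and Tkt (1.18) were higher by their brightest probes. Adipocytes use this NADPH for fat synthesis, and the adipocyte markers were lower on the same arrays, as given above; their part in these values was not tested.

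**Figure D5:**
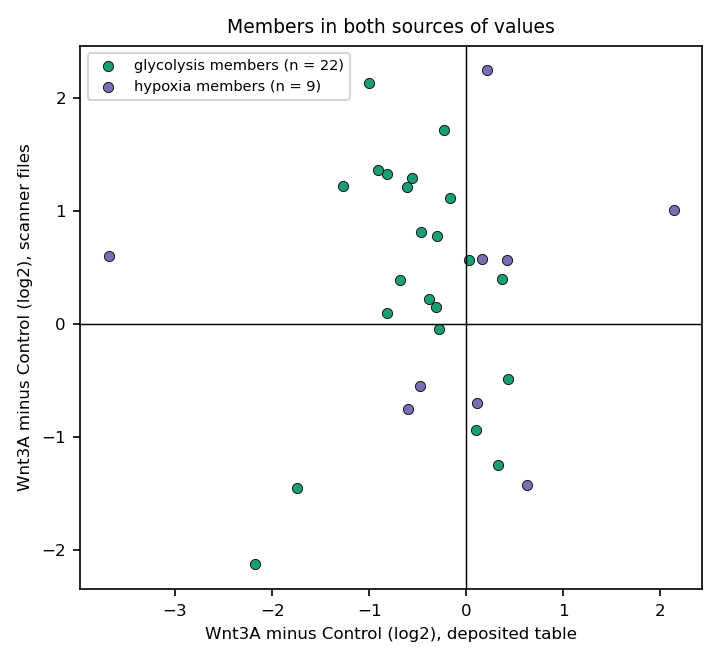
Wnt3A minus Control difference (log2) of the members measured in both sources, the deposited table on the horizontal axis and the scanner files on the vertical one (22 glycolysis genes in green, 9 hypoxia genes in purple). Most green points lie in the upper left, lower in the table and higher in the scanner files, and 5 green and 6 purple points have the same sign in both.

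The plot of both sources shows how far the direction rests on the choice of the table. Over the 57 member probes tested, the Control arrays of the table correlated at 0.975 (Pearson's r) and the Wnt3A arrays at 0.930, and pairs from different groups at 0.911 to 0.935. In the scanner files it was 0.777 and 0.787 within groups. Between groups it was 0.868 and 0.870 for same-numbered arrays there, and 0.725 and 0.815 for the other pairs. Probes are not independent replicates, so these are descriptions. By the difference of means, members lower in both sources were Pfkfb4, Pdk1, Eno1, Egln1 and Car9. Members higher in both were Hk2, Ldhb, Vegfa, Ndrg1, P4ha1 and Ddit4. None of these 11 passed the test in either source. Car9, Hk2, Ldhb, Vegfa, P4ha1 and Ddit4 also changed sign in at least 1 alternative setting of the table.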

How the data were processed

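RNA of 2 Control and 2 Wnt3A samples was amplified and hybridised to Agilent arrays, per the labels' protocols. The deposited table holds linear intensity values with a median of 1 in each column; how the authors scaled them is not given in the sources used here. The deposited scanner files hold intensity values from Agilent Feature Extraction 10.5.1.1, per the file headers, and were used as an alternative. Table rows were joined by feature number to probe annotation (mm8), and 0 value columns stayed without a sample. Values were taken to log2, less each array's 75th percentile, and the spots of a probe were averaged. Probes above a floor on both arrays of a group were kept; the floor was 4.94 times the 1st percentile of the column, a factor taken from the scanner flags. Each gene was represented by its brightest kept probe. limma 3.58.1 (lmFit, eBayes; R 4.3.3; two-sided, Benjamini-Hochberg over 33709 probes, threshold 0.05) compared the groups with 2 residual degrees of freedom, and was tested on simulated data. Members, lists, source and rules were chosen with earlier results of these data known. Every member is given; full values are given for members at an unadjusted p under 0.05, those without overlap at a size of 1 or more and the 3 brightest of each list, and in each wider list the 3 genes of smallest p are named. Alternatives were other scalings, filters, floors, probe rules, eBayes settings, a replicate block, the scanner values and leaving out each array.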

Additional observations from a re-analysis of the deposited data

How the results depend on the processing

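The number of probes called was 229 of 33709. It was 54 with no filter, 45 with only probes that all 4 arrays had above the floor, 351 with trend and robust settings, 2 in the scanner files, 0 in the scanner files with normexp and quantile normalization (465 at an unadjusted p under 0.05 in limma), and 0 to 0 without any 1 array, where limma gave 3727 to 4507 at an unadjusted p under 0.05. The call of 1 hypoxia gene, Epas1, which was also the call of 1 of all members, became 0 with no filter (adjusted p = 0.0647), with probes that all 4 arrays had above the floor (0.0544), with a gene's probes averaged (0.0857), in both scanner settings and without any 1 array (0 to 0, where no probe was called and the Epas1 difference stayed at -3.78 to -3.58), with 1 to 4 hypoxia genes and 2 to 7 members at an unadjusted p under 0.05 in those last fits. Epas1 turned to a difference of 0.60 in the scanner files and 0.48 there with normexp; the cause was not tested. The glycolysis count stayed 0 in every setting run. The glycolysis median of -0.43 became 0.48 in the scanner files and 0.64 with normexp, and lay between -0.55 and -0.38 without any 1 array. The hypoxia median of 0.16 became 0.56 in the scanner files and lay between -0.41 and 0.34 without any 1 array. Of 34 members, 21 kept their sign over 12 settings of the table and 13 did not. With the replicate block limma called 0 probes (4367 at an unadjusted p under 0.05), 0 hypoxia genes and 0 members (4 and 5). The adjusted p of Epas1 in that limma fit was 0.115. In the table, same-numbered arrays were not alike (r = 0.01 between deviations from group means, 33709 probes), so the numbers were not taken as pairs. In the scanner files same-numbered arrays were the most alike over the member probes (0.868 and 0.870), and a replicate block was not run there. All arrays lay on 1 slide with 1 scan time, so a slide block was not run. Pfkfb4, Adm and Egln3 lay partly below the floor, where values have no order, and the table carries no flags for saturation; the scanner files flagged 0 spots as saturated.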
